A study of Homo sapiens with 6 samples.

Results

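Homologous recombination and allied repair genes were followed in SNU449 cells, an established line from a human hepatocellular carcinoma, after knockdown of the spindle checkpoint gene MAD2L1. The set was a list of 37 gene symbols, grouped here by their role in repair. All 37 were found in the deposited table of 60589 genes, each on 1 row. Cells treated with an siRNA against MAD2L1 (siMAD2L1, 3 libraries) were compared with cells treated with a control siRNA (siControl, 3 libraries), all taken at day 3. The siRNA sequences were not used here, and the labels name neither a clone nor any allele or drug in either group. One label field disagrees with the titles: it gives MAD2L2 as the target in siMAD2L1 replicate 2 and MAD2L3 in replicate 3, whereas every title of the group gives MAD2L1. Whether the replicate numbers stand for separate cultures is not stated, so p-values measure only the spread between these libraries.

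Homologous recombination repairs a broken chromosome by copying the sister chromatid, and so works mainly in S and G2 phase. The ends are sensed and cut back, the bared strand is coated by replication protein A, and BRCA1, PALB2 and BRCA2 then help to build the protein filament that searches for the matching sequence. Many of these genes are transcribed mostly in cells that are copying their DNA. The Fanconi anaemia proteins unhook DNA crosslinks for this pathway, the kinases ATM and ATR signal the damage, and the Ku proteins with DNA-PKcs offer the competing route of end joining.

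Of the 37 genes, 36 reached a mean of 1 TPM (a transcript's share of the library after scaling for length) over the 6 libraries and were tested. XRCC3, RAD51C and EXO1 fell in siMAD2L1 and none of the 36 rose, by limma on log2(TPM + 1) with Benjamini-Hochberg adjustment over 14790 genes at 0.05. By the same rule 6.23% of all genes tested fell and 3.55% rose (9.78% in either direction), so that 3 of 36 lies near the background. Of the genes that fell, 2 act in filament formation and 1 in end resection, and no gene of the Fanconi, replication protein A, checkpoint or end-joining groups passed. The log2 fold change was below 0 for 34 of the 36, against 59.9% of all genes tested, with a median of -0.32 against -0.08 over all genes tested. The groups did not overlap at 13 of the 36, each of them lower in siMAD2L1 (36.1%), where 21.5% of all genes tested lay lower without overlap and 11.3% lay higher. At an unadjusted p under 0.05, 11 of the 36 were lower and 0 higher, against 17.4% and 8.9% of all genes tested. Lower genes made up 63.7% of all calls in the values as deposited, 52.5% after upper-quartile scaling and 43.8% with a length trend removed. With a filter at a mean of 5 TPM, 7 of 24 repair genes fell (9.76% of all genes then tested). With mitochondrial and the 20 most abundant genes taken out of the TPM, 7 of 36 fell (8.24%). With library weights in limma, 18 of 36 fell (22.6%). Other settings lowered the count. RAD51C alone fell without siControl replicate 1 (188 of all genes fell). Only RAD51C and XRCC3 fell at an adjusted p of 0.01 (205), without siMAD2L1 replicate 3 (408) and without siControl replicate 2 (268) or 3 (227). Bulk RNA cannot tell fewer cells in S and G2 phase from less of these transcripts in each cell.

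MAD2L1 itself measured 4.47, 0.795 and 2.40 TPM in siMAD2L1 replicates 1, 2 and 3, against 14.5, 13.7 and 13.9 TPM in siControl. Every siMAD2L1 library lay below every siControl library, replicate 1 being the least reduced (log2 fold change -2.22, SE 0.36, limma adjusted p = 0.0105; exact two-sided permutation p = 0.1, the smallest that 3 against 3 allows). Its adjusted p was 0.0597, 0.0547 and 0.0572 without siControl replicate 1, 2 and 3. MAD2L2, named in the treatment field of replicate 2, was at 154 TPM in that library, against 138 to 150.1 TPM in siControl. Genes above 0 TPM numbered 22514 to 23630 in siMAD2L1 and 24056 to 24258 in siControl, and mitochondrial transcripts took 9.21% to 10.9% of the TPM in siMAD2L1 and 15.2% to 15.4% in siControl. Read depth behind these values is unknown. Hepatocyte markers were mostly low in spite of the liver label, and 4 of the 11 reached the filter. APOB was listed at 0 throughout, and ALB did not exceed 0.441 TPM in siMAD2L1 or 0.451 TPM in siControl. The 11 markers summed to 8.68 to 13.3 TPM in siMAD2L1 and 17.1 to 17.9 TPM in siControl. Of the 4 tested, FGA fell, at 0.699 to 1.275 TPM in siMAD2L1 and 3.82 to 5.33 TPM in siControl. FGB fell as well, at 1.91 to 3.205 TPM in siMAD2L1 and 6.59 to 8.70 TPM in siControl. CYP2E1 was higher without overlap, at 3.803 to 5.54 TPM in siMAD2L1 and 1.67 to 3.77 TPM in siControl. It did not pass (log2 fold change 0.57), nor did SERPINA1 (-0.12). Of the 7 leukocyte markers, PTPRC, which defines the class, did not exceed 0.06 TPM, and the list summed to 128.5 to 149.6 TPM in siMAD2L1 and 69.7 to 77.2 TPM in siControl. CD68, a lysosomal and macrophage gene, made up nearly all of that sum and rose, at 125 to 144 TPM in siMAD2L1 and 63.1 to 69.8 TPM in siControl, whereas CD14 was lower without overlap, at 2.90 to 4.43 TPM in siMAD2L1 and 5.24 to 11.3 TPM in siControl, and did not pass (log2 fold change -0.89), nor did LYZ (-0.20). The 4 endothelial markers summed to 0.08 to 0.154 TPM in siMAD2L1 and 0.155 to 1.08 TPM in siControl. Of the 6 fibroblast markers COL1A1 and COL1A2 were high, making up nearly all of the sum of 319 to 350.4 TPM in siMAD2L1 and 487 to 565 TPM in siControl. COL1A2 fell (log2 fold change -0.74), and COL1A1 was lower without overlap and did not pass (-0.44). DCN and LUM did not exceed 0.041 TPM, PDGFRA 0.046 TPM and PDGFRB 0.979 TPM. The 4 mesenchymal markers, mostly VIM, summed to 10800 to 11410 TPM in siMAD2L1 and 9368 to 10220 TPM in siControl, and the 7 liver carcinoma and epithelial markers to 282 to 309.8 TPM and 412 to 427 TPM. Of the latter KRT8 and KRT18 fell (log2 fold change -0.44 and -0.55), while AFP, KRT19 and CDH1 did not pass (0.03, 0.02 and -0.38). The part of these shifts in the repair results was not tested.

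**Figure D1:**
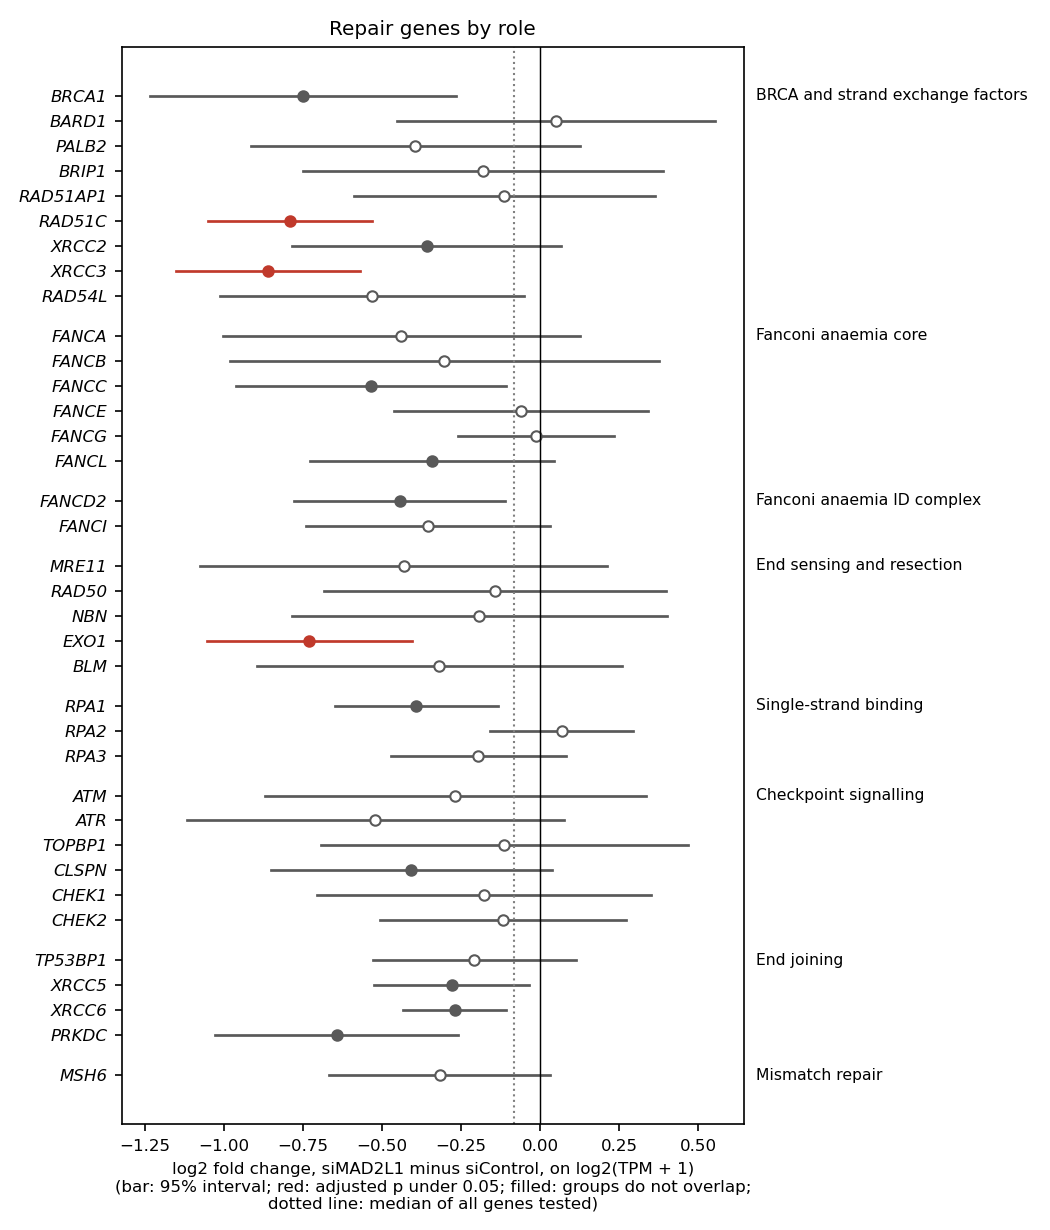
Log2 fold change (siMAD2L1 minus siControl, on log2(TPM + 1)) with its 95% interval for the 36 tested repair genes, ordered by role. Red marks XRCC3, RAD51C and EXO1, the genes past the adjusted p of 0.05; filled points are the 13 genes whose groups did not overlap, and the dotted line is the median of all genes tested, -0.08.

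XRCC3 and RAD51C fell, to 52.7% and 57.4% of the siControl mean, and hold 2 of the 3 calls. Both act in complexes that help the strand exchange filament form, and RAD51C pairs with XRCC3. Of XRCC3's exon bases 76.7% are shared with another gene, so its level is uncertain. XRCC3 measured 9.66, 10.8 and 8.76 TPM in siMAD2L1 replicates 1, 2 and 3, against 20.1, 18.2 and 17.1 TPM in siControl. All 3 siMAD2L1 libraries lay close together and well under the lowest siControl library, with means of 9.73 ± 1.01 TPM in siMAD2L1 and 18.5 ± 1.49 TPM in siControl (SD, n = 3 each; log2 fold change -0.86, SE 0.13, limma adjusted p = 0.00752). RAD51C measured 31.9, 31.6 and 25.1 TPM in siMAD2L1, against 50.2, 51.3 and 52.9 TPM in siControl. It too was low in every siMAD2L1 library, replicate 3 the lowest, with means of 29.5 ± 3.85 TPM in siMAD2L1 and 51.5 ± 1.35 TPM in siControl (SD, n = 3 each; log2 fold change -0.79, SE 0.11, limma adjusted p = 0.00670), and it was called in all 19 alternative settings. XRCC3 lost its call in 1 of the 19, without siControl replicate 1 (log2 fold change -0.80, adjusted p = 0.0572). XRCC2, which also acts in filament formation, was the least abundant of the 3 and measured 2.00, 1.62 and 1.73 TPM in siMAD2L1, against 2.60, 2.40 and 2.70 TPM in siControl. Its groups did not overlap, yet it did not pass (log2 fold change -0.36, adjusted p = 0.262).

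XRCC3 (ENSG00000126215) spans bases 103697609 to 103715504 of chromosome 14, minus strand, in GENCODE 29 (GRCh38), and 76.7% of its annotated exon bases are also exon of KLC1, a kinesin light chain gene on the other strand. With no strand setting given, reads there cannot be assigned to one of the pair, so the level and the fall of XRCC3 are uncertain. KLC1 measured 100.4, 76.3 and 79.3 TPM in siMAD2L1 and 76.4, 91.0 and 79.4 TPM in siControl, overlapping and not called (adjusted p = 0.855). RAD51C (ENSG00000108384), on the plus strand of chromosome 17 from 58692573 to 58735611, shares no exon base with another annotated gene, and neither does EXO1 (ENSG00000174371), on the plus strand of chromosome 1 from 241847967 to 241895148.

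The start regions of the 3 genes that fell are printed to show which promoter words of cell cycle genes they hold. They run 5′ to 3′ on the gene's strand over 250 bases before and 50 after the first RefSeq start listed (RefSeq, GRCh38.p14), XRCC3 at chr14:103715402-103715701 (minus strand), RAD51C at chr17:58692323-58692622 (plus strand) and EXO1 at chr1:241847954-241848253 (plus strand). Capitals mark matches on either strand to the E2F words TTTGGCGC and TTTCGCGC, the CHR word TTTGAA, the CCAAT box CCAAT and the GC box GGGCGG.
XRCC3: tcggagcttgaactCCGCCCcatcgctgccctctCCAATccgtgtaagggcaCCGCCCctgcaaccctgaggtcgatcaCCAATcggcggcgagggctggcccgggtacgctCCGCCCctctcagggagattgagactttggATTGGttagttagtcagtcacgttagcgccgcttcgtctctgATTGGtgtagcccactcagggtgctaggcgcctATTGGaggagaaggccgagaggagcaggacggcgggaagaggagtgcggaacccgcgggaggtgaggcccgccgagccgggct
RAD51C: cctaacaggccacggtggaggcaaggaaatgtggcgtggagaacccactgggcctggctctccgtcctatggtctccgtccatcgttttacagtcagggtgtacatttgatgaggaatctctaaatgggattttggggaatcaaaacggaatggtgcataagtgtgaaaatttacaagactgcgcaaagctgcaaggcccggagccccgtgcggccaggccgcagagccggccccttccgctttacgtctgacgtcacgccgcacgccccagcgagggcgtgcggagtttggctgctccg
EXO1: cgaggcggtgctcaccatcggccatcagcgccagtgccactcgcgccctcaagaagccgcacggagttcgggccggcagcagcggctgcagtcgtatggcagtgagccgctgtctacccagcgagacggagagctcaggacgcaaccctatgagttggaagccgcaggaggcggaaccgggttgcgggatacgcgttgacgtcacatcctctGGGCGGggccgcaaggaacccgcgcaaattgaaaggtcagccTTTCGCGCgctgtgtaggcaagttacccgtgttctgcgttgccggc
EXO1 held the E2F word TTTCGCGC, starting 5 bases into the transcript, and 1 GC box. XRCC3 held 5 CCAAT boxes and 3 GC boxes, and RAD51C held none of the 5 words in this window. No 2 matches overlapped in these windows. Promoters were given for 31 of the 37 genes, 42 start regions in all, and the second region listed for RAD51C and for EXO1 held none of the words. TTTGGCGC or TTTCGCGC occurred in 1.15% of all 35116 promoters of this length and in 4 of the 42 regions. These were regions of EXO1, TOPBP1, FANCC and XRCC6, of which only EXO1 passed the test. Other forms of the E2F site were not looked for, so the count does not show which regions lack such a site. CCAAT occurred in 34.6% of all promoters and in 21 of the 42 regions, GGGCGG in 45.0% and in 34, and TTTGAA in 15.2% and in 3.

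**Figure D2:**
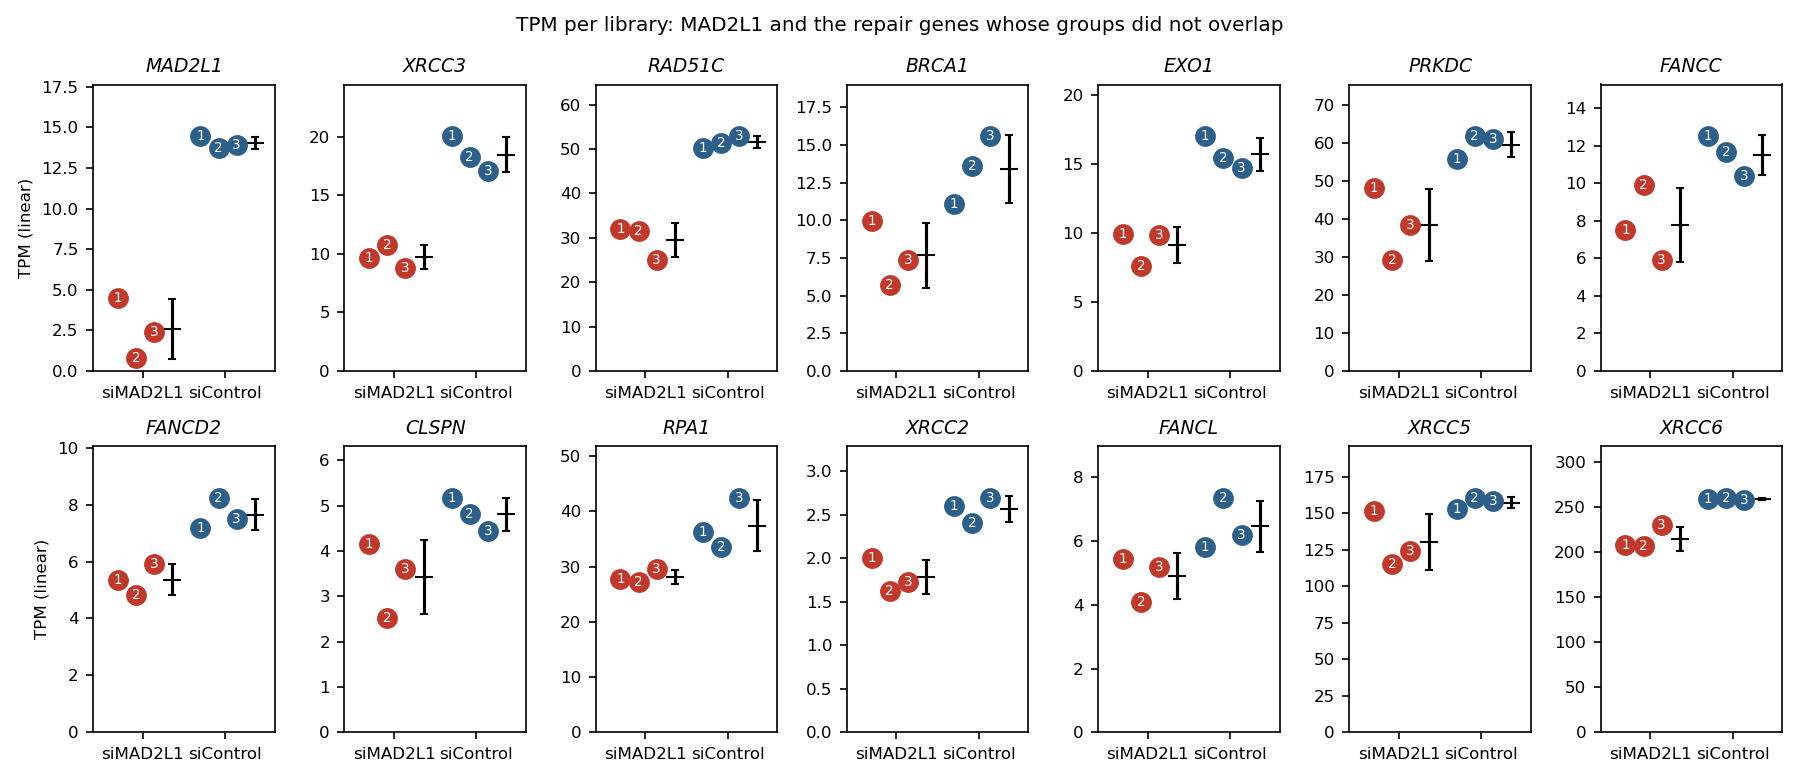
TPM in each library for MAD2L1 and the 13 repair genes whose groups did not overlap, in order of fold change. Numbered points are replicates (red siMAD2L1, blue siControl), bars give mean and SD, and each linear axis starts at 0. RAD51C and XRCC3 sit low in all 3 siMAD2L1 libraries. BRCA1, PRKDC, CLSPN and XRCC5 lie below siControl in each siMAD2L1 library, and least far below it in replicate 1.

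Of the other BRCA and strand exchange factors none passed by limma, 2 of them, BRCA1 and RAD54L, reaching an unadjusted p under 0.05, as did 17.4% of all genes tested in that direction. BRCA1, the ubiquitin ligase subunit that starts recombination at cut-back ends, measured 9.98, 5.67 and 7.38 TPM in siMAD2L1, against 11.1, 13.6 and 15.6 TPM in siControl. The groups did not overlap, but siMAD2L1 replicate 1 and siControl replicate 1 nearly met (log2 fold change -0.75, SE 0.21, adjusted p = 0.0617). BARD1, its obligate partner in the ligase, measured 4.32, 3.48 and 2.502 TPM in siMAD2L1 and 3.05, 3.94 and 2.77 TPM in siControl, with overlapping groups (log2 fold change 0.05, 95% interval -0.45 to 0.55). The difference between BRCA1 and BARD1 was not tested. PALB2, the bridge from BRCA1 to BRCA2, measured 4.32, 2.13 and 2.83 TPM in siMAD2L1 and 4.45, 4.47 and 3.86 TPM in siControl. Replicate 1 stood at the siControl level and replicates 2 and 3 below it (log2 fold change -0.40, adjusted p = 0.311). BRCA2, which helps to build the filament, was the 1 gene under the filter, at 0.608, 0.248 and 0.330 TPM in siMAD2L1 and 1.57, 0.386 and 0.310 TPM in siControl, where 1 library stood apart. RAD54L, a motor protein that helps strand invasion, measured 6.28, 7.78 and 11.01 TPM in siMAD2L1 and 11.6, 14.7 and 10.8 TPM in siControl. It was lowest in replicate 1, and overlapped through replicate 3 (log2 fold change -0.53, adjusted p = 0.151). BRIP1, the BRCA1-bound helicase, measured 3.69, 1.65 and 1.99 TPM in siMAD2L1 and 2.84, 2.80 and 2.72 TPM in siControl, above every siControl library in replicate 1 and below every one in replicates 2 and 3 (log2 fold change -0.18). RAD51AP1, which stimulates strand invasion, likewise had its highest value, 5.79 TPM, in siMAD2L1 replicate 1 (log2 fold change -0.11).

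EXO1, the exonuclease that extends the cut-back strand, fell to 58.1% of the siControl mean and was the 1 call among the 5 genes of end sensing and resection. EXO1 measured 9.91, 7.64 and 9.87 TPM in siMAD2L1, against 17.0, 15.4 and 14.7 TPM in siControl. No siMAD2L1 library reached the lowest siControl library (log2 fold change -0.73, SE 0.14, limma adjusted p = 0.0187), but the call was lost in 6 of 19 alternatives, among them without siMAD2L1 replicate 3 (adjusted p = 0.0502) and without siControl replicate 1, 2 or 3 (0.0982, 0.072 and 0.0722). The helicase BLM, which unwinds ends beside EXO1, measured 1.93, 0.757 and 1.18 TPM in siMAD2L1 and 1.97, 1.63 and 1.79 TPM in siControl. The MRE11, RAD50 and NBN complex, the sensor that makes the first cut, varied widely between siMAD2L1 libraries. NBN measured 13.4, 6.27 and 6.69 TPM in siMAD2L1 and 9.96, 10.1 and 8.88 TPM in siControl. Replicate 1 was above every siControl library and the other 2 below every one. MRE11 measured 5.65, 2.29 and 3.10 TPM in siMAD2L1 and 4.85, 6.25 and 4.20 TPM in siControl, and RAD50 7.65, 4.51 and 5.75 TPM in siMAD2L1 and 7.33, 8.01 and 4.77 TPM in siControl. None of the 3 passed, at log2 fold changes of -0.19, -0.43 and -0.14 for NBN, MRE11 and RAD50. Of RAD50's exon bases 79.7% are shared with an overlapping transcript annotated on the same strand, so its level is uncertain. Exon bases are also shared, at 28.7% of TP53BP1, 25.1% of RAD54L and 23.6% of FANCA, with a neighbouring gene.

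Replication protein A is a trimer that coats single-stranded DNA, and none of its 3 subunits passed by limma, RPA1 alone reaching an unadjusted p under 0.05 (17.4% of all genes tested). RPA1, the large DNA-binding subunit, measured 27.7, 27.2 and 29.6 TPM in siMAD2L1, against 36.3, 33.5 and 42.5 TPM in siControl. These groups were apart, with all siMAD2L1 libraries close together (log2 fold change -0.39, SE 0.11, adjusted p = 0.0664). RPA2, the subunit phosphorylated after damage, measured 29.1, 32.0 and 31.2 TPM in siMAD2L1 and 27.3, 29.1 and 31.6 TPM in siControl. It overlapped between the groups, with an interval of -0.16 to 0.29 for the log2 fold change of 0.07. RPA3, the small subunit, measured 24.0, 18.9 and 19.3 TPM in siMAD2L1 and 22.9, 23.8 and 24.7 TPM in siControl (log2 fold change -0.20, adjusted p = 0.347). The difference between subunits was not tested.

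None of the 8 Fanconi anaemia genes passed by limma, FANCC and FANCD2 reaching an unadjusted p under 0.05 (17.4% of all genes tested). FANCD2 and FANCI form the pair that is marked with ubiquitin at a crosslink. FANCD2 measured 5.35, 4.83 and 5.92 TPM in siMAD2L1, against 7.18, 8.24 and 7.51 TPM in siControl. It was below siControl in each library (log2 fold change -0.44, SE 0.14, adjusted p = 0.0952). FANCI measured 24.8, 20.9 and 22.3 TPM in siMAD2L1 and 33.2, 33.5 and 22.3 TPM in siControl, the third siControl library lying at the siMAD2L1 level (log2 fold change -0.36, adjusted p = 0.222). In the core complex that attaches the ubiquitin, FANCC measured 7.53, 9.89 and 5.93 TPM in siMAD2L1, against 12.5, 11.7 and 10.4 TPM in siControl (log2 fold change -0.53, adjusted p = 0.113). FANCL, the ligase subunit, measured 5.43, 4.08 and 5.18 TPM in siMAD2L1, against 5.82, 7.36 and 6.19 TPM in siControl (log2 fold change -0.34, adjusted p = 0.238). FANCC and FANCL did not overlap between the groups, and the other 4 core genes did, where 21.5% of all genes tested lay lower without overlap. FANCA measured 11.7, 16.1 and 9.17 TPM in siMAD2L1 and 12.9, 15.7 and 22.7 TPM in siControl, a range within siControl wider than the difference of means. FANCG measured 19.3, 18.9 and 17.6 TPM in siMAD2L1 and 17.4, 18.9 and 20.1 TPM in siControl (log2 fold change -0.01, 95% interval -0.26 to 0.23). FANCE gave a log2 fold change of -0.06. FANCB gave -0.30, at 1.19, 0.614 and 0.762 TPM in siMAD2L1 and 1.01, 0.804 and 2.22 TPM in siControl. Its mean was 0.856 TPM in siMAD2L1 and 1.35 TPM in siControl, where replicate 3 stood apart. FANCB thus passed the filter of 1 TPM only through siControl, and is counted among the genes below 0 on that footing.

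Of the 6 checkpoint genes 0 passed by limma and 0 reached an unadjusted p under 0.05, at log2 fold changes between -0.52 and -0.11. ATR, the kinase that answers stalled forks, measured 2.67, 0.990 and 1.59 TPM in siMAD2L1 and 3.13, 2.57 and 2.78 TPM in siControl. Only replicate 1 reached the siControl range (log2 fold change -0.52, adjusted p = 0.244). CLSPN, the adaptor that lets ATR activate CHK1, measured 4.15, 2.53 and 3.60 TPM in siMAD2L1, against 5.18, 4.81 and 4.44 TPM in siControl (log2 fold change -0.41, adjusted p = 0.224). CLSPN was the 1 checkpoint gene without overlap, where 21.5% of all genes tested lay lower without overlap. ATM, the kinase that answers breaks, measured 5.75, 2.35 and 3.68 TPM in siMAD2L1 and 5.32, 4.54 and 4.27 TPM in siControl. CHEK1, the effector kinase below ATR, measured 18.4, 9.65 and 11.8 TPM in siMAD2L1 and 15.9, 16.4 and 12.1 TPM in siControl. Both had replicate 1 above and replicates 2 and 3 below every siControl library. TOPBP1, the activator of ATR, was instead low in replicate 3 alone, at 10.3, 9.65 and 5.18 TPM in siMAD2L1 and 7.25, 9.001 and 10.5 TPM in siControl. CHEK2, the effector kinase below ATM, measured 13.0, 15.4 and 10.5 TPM in siMAD2L1 and 13.1, 16.5 and 12.7 TPM in siControl (log2 fold change -0.12, 95% interval -0.51 to 0.27).

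The Ku genes were the most abundant of the set on the TPM scale. Of the 4 end-joining genes 0 passed by limma, while 3 did not overlap between the groups (21.5% of all genes tested lay lower without overlap) and reached an unadjusted p under 0.05 (17.4% of all genes tested were lower at it). XRCC6 and XRCC5 encode Ku70 and Ku80, the ring that caps broken ends. XRCC6 measured 208, 208 and 231 TPM in siMAD2L1, against 259.6, 261 and 259 TPM in siControl. The siControl libraries were nearly equal, and XRCC6 in siMAD2L1, at 82.9% of the siControl mean, just missed the threshold (log2 fold change -0.27, SE 0.07, adjusted p = 0.0507). XRCC5 measured 152, 115 and 124 TPM in siMAD2L1, against 153, 161 and 158 TPM in siControl, so that replicate 1 was almost at the siControl level (log2 fold change -0.28, adjusted p = 0.141). PRKDC, the catalytic subunit of DNA-PK, measured 48.0, 29.1 and 38.3 TPM in siMAD2L1, against 55.8, 61.7 and 61.0 TPM in siControl. At 64.6% of the siControl mean its log2 fold change was the furthest from 0 of the 4, and it too lay at the threshold (log2 fold change -0.64, SE 0.17, adjusted p = 0.0501). PRKDC passed in 7 and XRCC6 in 5 of 19 alternatives. TP53BP1, which holds back resection and so favours end joining, measured 16.4, 12.3 and 12.2 TPM in siMAD2L1 and 15.98, 15.6 and 15.6 TPM in siControl (log2 fold change -0.21, adjusted p = 0.390). MSH6, a subunit of a mismatch sensor, measured 22.3, 14.9 and 18.4 TPM in siMAD2L1 and 23.2, 21.6 and 24.5 TPM in siControl (log2 fold change -0.32, adjusted p = 0.228).

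The siMAD2L1 libraries differed from each other across the set. The median deviation of the 36 genes from their siControl mean, on the log2(TPM + 1) scale, was -0.05, -0.50 and -0.35 in siMAD2L1 replicates 1, 2 and 3, and over all genes tested it was 0.02, -0.15 and -0.12. In replicate 1, 15 of the 36 lay below every siControl library (34% of all genes tested did) and 8 lay above every one (38.2%). In replicate 2, 29 of the 36 lay below (49.6%) and 1, RPA2, above (21.9%), and in replicate 3, 31 lay below (46.4%) and 0 above (23.5%). The 8 genes above siControl in replicate 1 were BARD1, BRIP1, RAD51AP1, FANCE, NBN, ATM, CHEK1 and TP53BP1. Replicate 1 was the highest siMAD2L1 library at 27 of the 36 (52.9% of all genes tested), and the order replicate 2, then 3, then 1 from low to high, which is also that of MAD2L1 itself, held at 21 of the 36 (32.6%). This order was looked for after the values were seen. With siMAD2L1 replicate 1 left out, BRCA1, NBN, XRCC5, XRCC6, PRKDC and MSH6 joined the 3 calls, at 9 of 36, while 11.5% of all genes tested then fell. With replicate 1 alone against siControl, which takes the lone library to vary like siControl, XRCC3 and RAD51C were called (3.75% of all genes tested fell). Without siControl replicate 1, RAD51C was the only call.

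**Figure D3:**
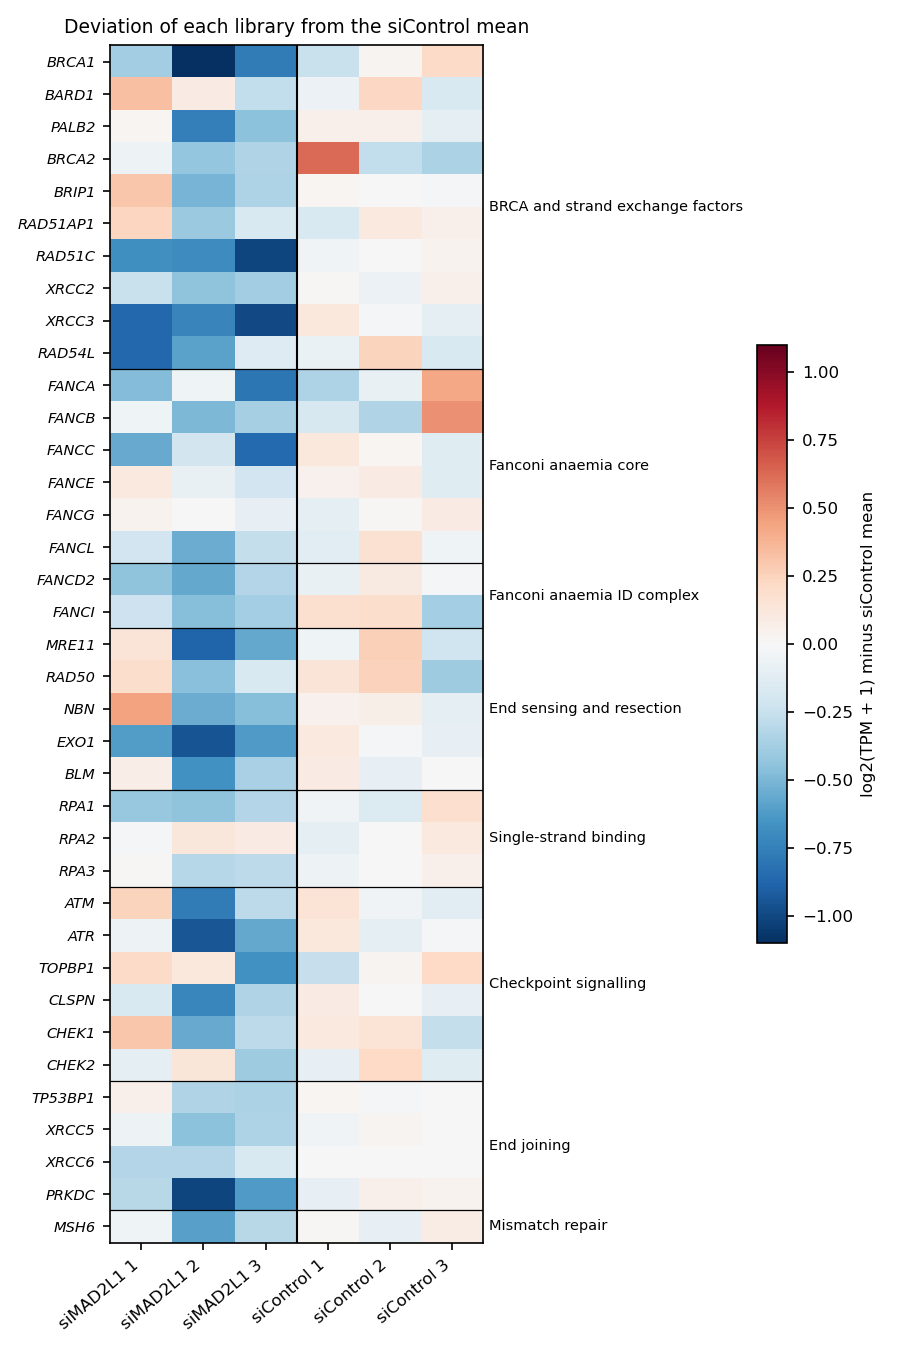
Deviation of log2(TPM + 1) from the siControl mean for the 37 genes (rows, by role) in each library (columns, siMAD2L1 left of siControl). Blue is lower and red higher than the siControl mean. RAD51C, XRCC3 and EXO1 are blue in all 3 siMAD2L1 libraries, whereas NBN, ATM, CHEK1 and BRIP1 are red in siMAD2L1 replicate 1 and blue in replicates 2 and 3.

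Exon length moved with the change in replicate 1 over all genes, and 27 of the 36 repair genes exceed 4000 exon bases. An exon length was at hand for 14363 of the 14790 genes tested, and values over all genes in this paragraph cover those. In length classes ending at 2000, 4000, 6000 and 8000 exon bases and 1 above, they numbered 2483, 3749, 3236, 2229 and 2666. Repair genes in these classes numbered 0, 9, 7, 10 and 10. The median deviation in replicate 1 was -0.11 for genes up to 2000 exon bases and 0.16 for those over 8000, whereas in replicate 2 it was -0.10 and -0.21 and in replicate 3 -0.15 and -0.11. Over the 36 repair genes, Pearson's r of deviation with log2 exon length was 0.03, -0.36 and -0.46 in replicates 1, 2 and 3, and over all genes tested it was 0.18, -0.04 and 0.07, in each case over genes that share their libraries. With a length trend taken out of each library, XRCC3, RAD51C and EXO1 stayed called and BRCA1 and PRKDC passed as well, where 4.21% of all genes fell (log2 fold change -0.69 and -0.59, adjusted p = 0.0381 and 0.0173).

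**Figure D4:**
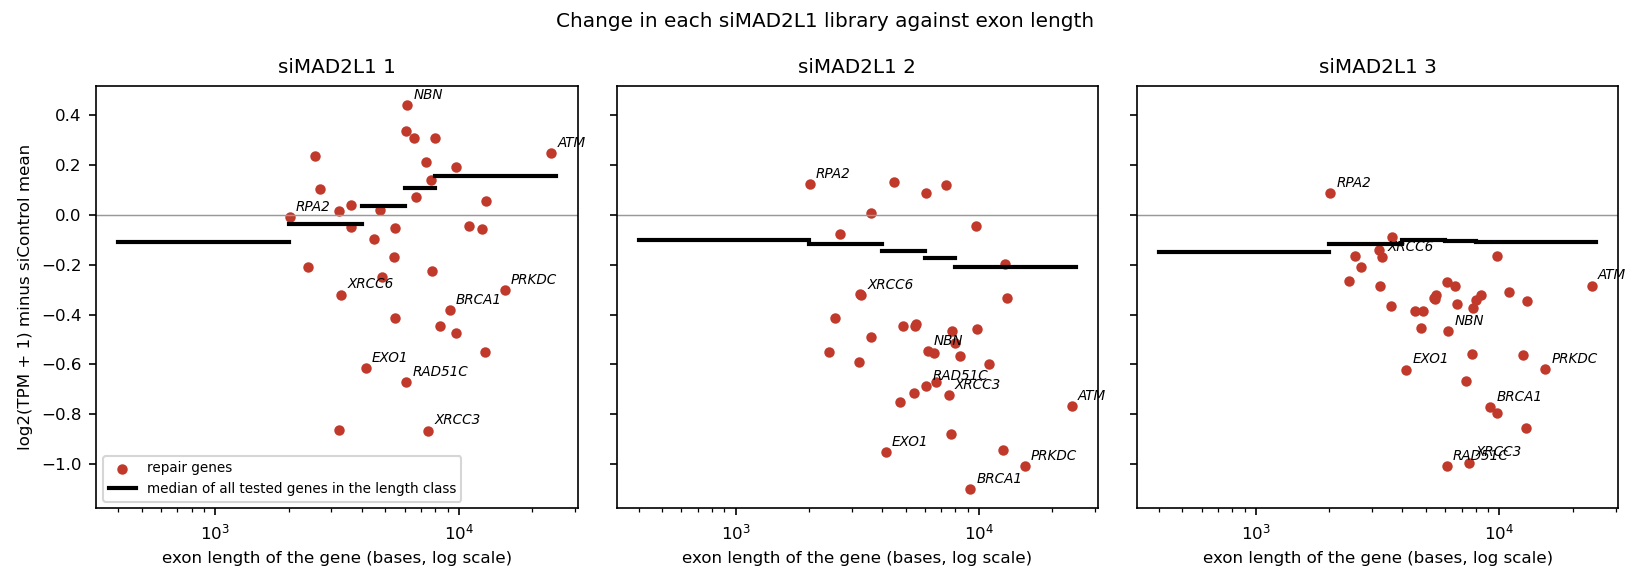
Deviation of log2(TPM + 1) from the siControl mean against exon length (bases, log axis) in siMAD2L1 replicates 1, 2 and 3. Red points are the 36 tested repair genes, and black bars are the median, in each length class, of all genes tested that had an exon length. In replicate 1 the bars climb with length, from -0.11 in the shortest class up to 0.16 in the longest, with NBN and ATM above them. RAD51C, XRCC3 and EXO1 lie far below the bars in every panel.

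A further 75 repair genes outside the set were read from a list, 73 of them tested. Of these 5 fell (6.85%, beside 6.23% of all genes tested), 1 rose (3.55% of all genes tested did) and 67 did not pass, with a median of -0.17. The share that fell lies near the background, and each gene named is a single result. PARP1, the sensor of strand breaks, measured 48.5, 40.7 and 44.3 TPM in siMAD2L1, against 73.7, 73.4 and 72.4 TPM in siControl. It fell to 60.8% of the siControl mean in libraries that lay close together (log2 fold change -0.71, SE 0.09, limma adjusted p = 0.00457). H2AX, the histone variant phosphorylated around breaks, measured 45.1, 54.9 and 59.5 TPM in siMAD2L1, against 88.7, 86.8 and 95.9 TPM in siControl (log2 fold change -0.76, adjusted p = 0.0077). UBE2T, the conjugating enzyme that works with FANCL on the FANCD2 and FANCI pair, measured 54.3, 54.0 and 61.8 TPM in siMAD2L1, against 97.5, 82.0 and 99.1 TPM in siControl (log2 fold change -0.70, adjusted p = 0.0077). UBE2T fell where FANCL and FANCD2 did not pass; the difference between these genes was not tested. RECQL4, a helicase of replication and repair, and RFWD3, a ligase acting on RPA, fell as well (log2 fold change -0.54 and -0.53). SLX1A, a structure-selective nuclease, was the 1 that rose, at 85.6, 114 and 92.8 TPM in siMAD2L1, against 64.8, 74.8 and 62.5 TPM in siControl (log2 fold change 0.52, adjusted p = 0.0381). SLX1A has a near-identical copy, so its reads may be split between the copies. PARP1 and H2AX kept their calls in all 19 alternatives, and UBE2T in 18, losing it without siControl replicate 1 (adjusted p = 0.0546). RECQL4, RFWD3 and SLX1A kept theirs in 9, 11 and 11, each losing it without siMAD2L1 replicate 2 and without any of the 3 siControl libraries, RECQL4 also without siMAD2L1 replicate 1, and RFWD3 and SLX1A without replicate 3 (adjusted p with a library left out up to 0.152, 0.0808 and 0.144).

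Lists of S phase and G2/M genes, none of them in the repair set, were read beside it because recombination is used in these phases. Of 30 S phase genes 15 fell and 0 rose, with a median log2 fold change of -0.58, and of 52 G2/M genes 19 fell and 0 rose, with a median of -0.50. These shares were 50% and 36.5%, beside 6.23% of all genes tested and 8.33% of the repair set. PCNA, the replication clamp, averaged 56.1 TPM in siMAD2L1 and 125 TPM in siControl, and MCM6, part of the replicative helicase, 11.3 TPM in siMAD2L1 and 26.5 TPM in siControl (adjusted p = 0.00153 and 0.00262). The medians in siMAD2L1 replicates 1, 2 and 3 were -0.56, -0.73 and -0.54 for S phase genes, -0.16, -0.71 and -0.53 for G2/M genes and 0.02, -0.27 and -0.19 for the other repair genes. S phase genes were low in all 3 libraries, while the repair set and the other repair genes were near 0 in replicate 1. Whether the shift in S phase and G2/M genes has a part in the repair values was not tested.

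**Figure D5:**
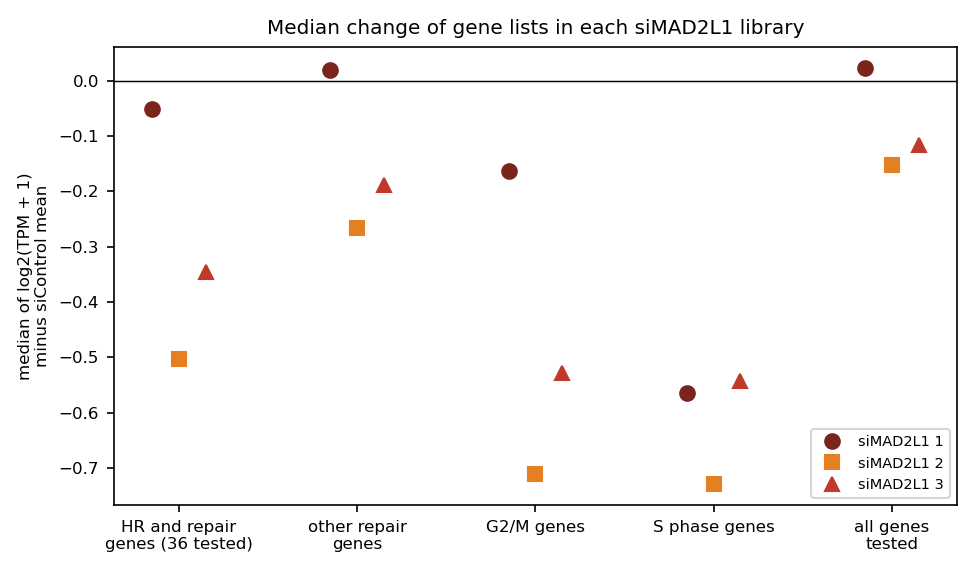
Median deviation of log2(TPM + 1) from the siControl mean for 4 gene lists and for all genes tested, with 1 symbol for each siMAD2L1 library. S phase genes lie at -0.54 or lower in every library, whereas the homologous recombination and repair genes lie at -0.05 in replicate 1, -0.50 in replicate 2 and -0.35 in replicate 3.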

How the data were processed

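RNA was sequenced from 3 siMAD2L1 and 3 siControl libraries of SNU449 cells at day 3. The deposited table holds TPM, made by the authors; per the submitters' processing notes, fastp, HISAT2, DESeq2 1.16.1 and build hg38 were used, while the counting tool, annotation and strand setting were not stated there. TPM is no count, so depth is unknown and limma 3.58.1 (R 4.3.3) was fitted to log2(TPM + 1), which understates changes of low genes, over 14790 genes with a mean of at least 1 TPM, with Benjamini-Hochberg adjustment and a threshold of 0.05. Exon lengths, overlaps and positions came from GENCODE 29, and promoters from RefSeq (GRCh38.p14). The code was tested on simulated data with 200 changed genes. There a log2 change of 0.5 was recovered in 19.2% of cases and a change of 1 in 76%, and 5.8% of calls were false. The changed genes were drawn from the more abundant ones, with independent normal noise, so these rates do not cover genes of low TPM. A gene that did not pass may thus still have changed.

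The genes and lists were chosen with earlier results of these data known. By rule, genes called and the 2 with the largest fold change in each role were given in every library, with up to 10 called genes of the other repair list; further repair genes were detailed, and PCNA and MCM6 named, after their values were seen. Alternatives were other pseudocounts (0.1 and 0.5), filters, scalings, limma weights, a replicate block and each library left out.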

Additional observations from a re-analysis of the deposited data

How the results depend on the processing

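The count of 3 repair genes that fell is given with the share of all genes tested that fell in the same setting, 6.23% in the main one. It was 7 with a filter at a mean of 5 TPM (of 24 tested, 9.76%) and 7 with mitochondrial genes and the 20 highest taken out of the TPM (8.24%). With a transcript-length trend removed it was 5 (4.21%), and with library weights in limma 18 (22.6%). After quantile normalization it was 5, where 704 of all genes fell, against 921 in the main setting. Upper-quartile scaling added PRKDC to the 3 calls (715 of all genes fell), and at an adjusted p of 0.01 RAD51C and XRCC3 kept theirs. Leaving out single libraries gave 1 repair gene that fell without siControl replicate 1 (188 of all genes) to 9 without siMAD2L1 replicate 1 (1706 of all genes). None of the 19 alternatives called a repair gene higher. The median log2 fold change of the repair genes, -0.32, was -0.42 to -0.224 when any 1 library was omitted and -0.052 with siMAD2L1 replicate 1 alone. Among other repair genes, the 5 that fell became 11 with those genes taken out (8.24% of all genes tested fell), 22 with library weights (22.6%), 3 at an adjusted p of 0.01 and 2 to 13 with a library left out. Over all genes tested the 921 that fell became 205 at 0.01 and 188 to 1706 with a library left out, so these counts moved with the whole table. The 1 that rose became 0 with no filter and at 0.01, 2 with quantile normalization and with the length trend removed, 5 with library weights and 0 to 1 with a library left out, where the 525 that rose over all genes became 267 and 154, 688 and 776, 1514, and 138 to 716 in turn. The MAD2L1 log2 fold change of -2.22 missed the 0.01 threshold, and with a library left out it ran from -2.61 to -1.80, its adjusted p exceeding 0.05 without siControl replicate 1, 2 or 3 (0.0597, 0.0547 and 0.0572). The cause of these changes was not tested.

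Some genes changed sign. FANCG was at 0.034 after upper-quartile scaling, 0.053 after quantile normalization and 0.08 with the length trend removed. RAD51AP1 was at 0.016 and FANCE at 0.097 after quantile normalization, and FANCE at 0.04 with the length trend removed. BARD1 was at -0.163 with library weights. With any 1 library left out, FANCG ran from -0.067 to 0.033, RAD51AP1 from -0.288 to 0.036, FANCE from -0.143 to 0.014, BARD1 from -0.092 to 0.21, RAD50 from -0.339 to 0.014, CHEK1 from -0.42 to 0.012, TOPBP1 from -0.275 to 0.164 and CHEK2 from -0.242 to 0.016. With siMAD2L1 replicate 1 alone, FANCG was at 0.041, RAD51AP1 0.236, FANCE 0.105, RAD50 0.193, CHEK1 0.309, TOPBP1 0.21, PALB2 0.018, BRIP1 0.309, MRE11 0.139, NBN 0.439, BLM 0.07, RPA2 -0.009, RPA3 0.015, ATM 0.246 and TP53BP1 0.057. Of 672 values of single repair genes, 599 kept direction and side of the threshold, 7 lost and 34 gained a call, and 32 changed sign.

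No effect shared by same-numbered libraries was seen: their deviations, here from the mean of each library's own group, correlated at 0.02, 0.01 and 0.06. Whether the libraries were paired by design is not stated, and these values cannot settle it. With the replicate block 3 repair genes fell, and calls over all genes were 532 lower and 336 higher, against 921 and 525 without it. With 3 libraries a group and no counts, the precision of genes under a few TPM, such as BRCA2, FANCB and BLM, cannot be stated beyond the spread shown.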
